A study of Mus musculus with 12 samples.

Results

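The AP-1 and BATF family genes Jun, Junb, Jund, Fos, Fosb, Fosl1, Fosl2, Batf, Batf3 and Atf3 were followed in mouse regulatory T cells (Treg) with and without the transcription factor Ikaros, before and after stimulation through the T cell receptor. These 10 genes were chosen by name out of the 36222 genes of the deposited expression table, and each symbol had a single row there. Wild-type (WT) mice carried the Foxp3-YFP-Cre allele alone, so they expressed the Cre that is driven from the Foxp3 gene, and conditional knockout (cKO) mice carried it together with floxed Ikzf1, the gene of Ikaros. Both were on a B6 background, and per the study the mice were matched for age, at 6 to 8 weeks. YFP+ Treg were sorted from splenic CD4+ T cells of single animals, and RNA was taken either from unstimulated cells (ex vivo) or after 4 h on plate-bound antibodies to CD3 and CD28, at 1 µg/ml each (stimulated). Each of the 4 groups held 3 libraries. Cells cultured for 4 h without the antibodies were not analysed here, so stimulation and time in culture cannot be told apart.

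AP-1 is a pair of basic leucine zipper (bZIP) proteins. Jun proteins pair with each other or with Fos proteins, Batf and Batf3 pair with Jun proteins and lack a strong activation domain of their own, and Atf3 is a stress-induced member that can pair with Jun. In T cells, AP-1 genes are immediate early genes: signals from the receptor through MAP kinases switch on their transcription quickly, their mRNA is short-lived, and the proteins bind beside NFAT at cytokine genes or beside IRF4 at composite elements. Batf is known for its part in effector Treg of tissues. The same immediate early genes are also known to rise when tissue is dissociated and cells are sorted.

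To show the control DNA of the genes on which the results turn, the 250 bases before the RefSeq transcription start (build GRCm38.p6, written along the gene's strand) are printed for the 3 members with the largest falls in stimulated WT Treg and for Fosl2, which was higher there. Capitals mark TGACG, the core of the cyclic AMP response element, and GGGAA, a core that Ikaros can bind, each read on both strands.
Jun, chr4:95052223-95052472, minus strand: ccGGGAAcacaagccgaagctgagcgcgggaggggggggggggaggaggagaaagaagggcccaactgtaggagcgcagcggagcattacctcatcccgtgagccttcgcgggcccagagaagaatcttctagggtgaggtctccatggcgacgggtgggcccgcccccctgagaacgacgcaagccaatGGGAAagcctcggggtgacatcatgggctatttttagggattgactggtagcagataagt
Fos, chr12:85473640-85473889, plus strand: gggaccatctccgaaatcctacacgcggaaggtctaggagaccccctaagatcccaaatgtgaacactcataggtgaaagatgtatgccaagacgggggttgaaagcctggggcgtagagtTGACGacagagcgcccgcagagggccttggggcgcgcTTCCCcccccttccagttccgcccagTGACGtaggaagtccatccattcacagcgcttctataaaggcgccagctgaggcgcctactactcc
Fosb, chr7:19310046-19310295, minus strand: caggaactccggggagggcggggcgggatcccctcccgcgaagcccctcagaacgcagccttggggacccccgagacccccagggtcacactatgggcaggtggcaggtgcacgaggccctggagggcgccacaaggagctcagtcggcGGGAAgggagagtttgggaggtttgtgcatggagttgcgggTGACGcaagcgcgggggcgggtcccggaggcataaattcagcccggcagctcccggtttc
Fosl2, chr5:32136222-32136471, plus strand: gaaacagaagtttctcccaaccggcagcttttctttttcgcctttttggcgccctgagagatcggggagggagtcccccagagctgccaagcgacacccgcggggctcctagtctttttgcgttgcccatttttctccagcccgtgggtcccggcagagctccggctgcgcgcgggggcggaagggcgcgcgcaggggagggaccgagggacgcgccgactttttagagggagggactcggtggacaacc
Windows were matched for 9 of the 10 members. The core TGACG lies inside the full response element TGACGTCA. It was found in the windows of 5 of the 9 members (Junb, Fos, Fosb, Batf and Atf3) and in 17.77% of 32851 RefSeq windows of that length. Fos held it at 129 and 66 bases before the start, and Fosb at 60 bases. GGGAA was found in 7 of the 9 windows and in 56.24% of all windows, and Fosl2 held neither sequence. The AP-1 element TGANTCA (6.75% of all windows), the full element TGACGTCA (1.55%) and the serum response factor CArG box (1.47%) were in 0 of the 9. Only exact letters within these 250 bases were counted, so variant elements and elements farther from the start would not be seen. These matches describe letters in a short window, and none was tested as a site.

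The libraries held 8208659 to 20247649 reads assigned to genes. Values are in TPM, a transcript level corrected for transcript length and scaled to sum to 1000000 in each library. Before stimulation Ikzf1 was at 104.9 ± 20.6 TPM in WT and at 41.9 ± 2.82 TPM in cKO, and after it at 74.8 ± 8.48 and 25.2 ± 7.43 TPM (SD, n = 3 each). Its log2 change in cKO was -1.52 ex vivo and -1.29 after stimulation (SE 0.114 for each), with adjusted p = 5.45e-05 and 0.000161 in limma. Reads of Gm10800 took 17.7 to 55.9% of the TPM of a library, most in cKO stimulated (42.9 to 55.9%), so levels were rescaled between libraries before testing. Xist was 179 TPM in WT ex vivo 3 and at most 1.36 TPM in the other 11 libraries, so that library came from a female animal. The members' values in limma are therefore also given without it where a comparison uses WT ex vivo, and for genes of other lists where a call printed here was lost without it. Without it Ikzf1 had a log2 change of -1.51 ex vivo (adjusted p = 0.000391). Foxp3 stood at 126 to 208 TPM in WT ex vivo. In bulk RNA, fewer cells that express a gene and less RNA per cell cannot be told apart.

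**Figure D1:**
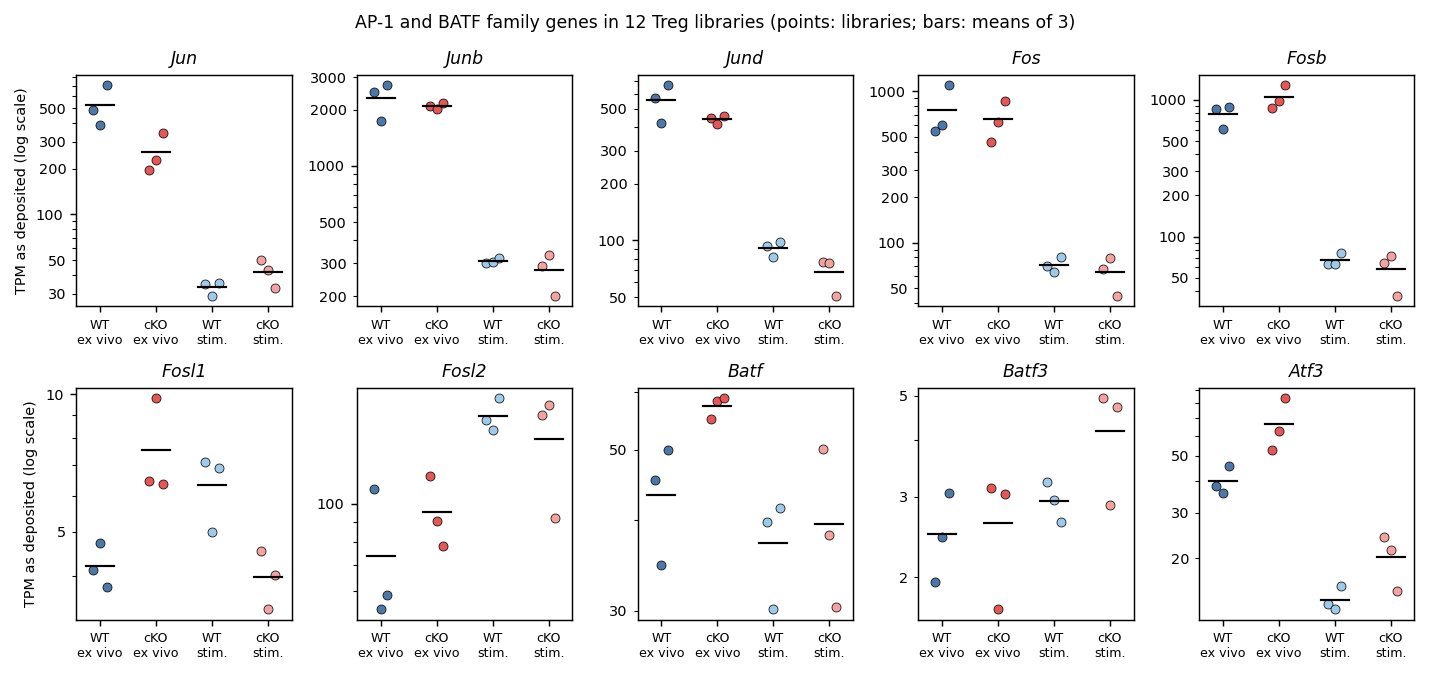
TPM as deposited (log axis) of each member in the 12 libraries by group, with points for libraries and bars for the mean of 3. Jun, Junb, Jund, Fos, Fosb and Atf3 sit higher in all 6 ex vivo libraries than in any stimulated one, whereas Fosl2 was 54.1 to 118 TPM ex vivo and 92.2 to 185 TPM after stimulation.

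In unstimulated WT Treg the family was led by Junb, at 2311 ± 513 TPM (SD, n = 3). Fosb (788 ± 148 TPM), Fos (749 ± 305), Jund (553 ± 125) and Jun (528 ± 165) followed, and the ranges of each of these neighbours overlapped. Fosl2 stood at 73.9 ± 30.3 TPM, above Batf (43.3 ± 7.85) and Atf3 (39.97 ± 5.12), whose ranges overlapped. Fosl1 (4.21 ± 0.476 TPM) and Batf3 (2.48 ± 0.554) were lowest. The order changed after stimulation: in WT stimulated libraries Junb was still highest, at 309.8 ± 10.2 TPM, but Fosl2 came next at 167 ± 16.2, ahead of Jund (91.5 ± 8.43), Fos (71.6 ± 8.47) and Fosb (67.4 ± 7.63). Batf (37.1 ± 6.14) and Jun (33.0 ± 3.41) followed with overlapping ranges. The summed level of the 10 members went from 3891 to 6247 TPM over the WT libraries before stimulation and from 749.5 to 863.8 TPM after it. The cKO libraries held 4303 to 5347 TPM before and 512.0 to 845.7 TPM after.

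The comparison of stimulated with ex vivo WT Treg asked how the family's RNA changed over 4 h of receptor engagement. The Jun and Fos genes were far lower after stimulation, and Fosl2 alone rose. Of the 9 members tested, 7 fell, Fosl2 rose, and Fosl1 was not called, against 32.0% of all 13318 genes tested that were called (12.7% higher and 19.3% lower; adjusted p under 0.05 in limma). The median log2 change was -2.76 over these 9 genes and 0.0021 over all genes tested. Batf3, whose mean never reached 5 TPM in any group, was not among the genes tested.

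Jun, on chromosome 4 (94715725 to 94718913, minus strand, build NCBIM37, which is mm9), encodes the founding partner of AP-1. Its level was 485, 388 and 710 TPM over the WT ex vivo libraries, and it was 34.8, 29.1 and 35.1 TPM over the WT stimulated ones. All 3 stimulated libraries lay below every ex vivo library. Jun fell by 4.11 on the log2 scale (SE 0.216, adjusted p = 8.31e-07), the largest fall of any gene tested in WT. Without WT ex vivo 3 the log2 change was -3.87. Junb (chromosome 8, 87500811 to 87502617), a Jun protein known to act in part as a brake on Jun, went from 2482, 1734 and 2716 TPM to 301, 307 and 321 TPM, a log2 change of -3.07 (SE 0.164, adjusted p = 9.18e-07). Jund (chromosome 8, 73221638 to 73224515), commonly the most steadily expressed Jun gene, went from 573, 419 and 668 TPM to 93.8, 82.1 and 98.5 TPM, a log2 change of -2.76 (SE 0.135, adjusted p = 7.29e-07). Both genes were thus lower in every stimulated WT library than in any ex vivo one. The log2 changes were -2.93 for Junb and -2.60 for Jund without WT ex vivo 3.

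Fos (chromosome 12, 86814840 to 86818223), whose protein binds DNA only with a Jun partner, stood at 548, 600 and 1100 TPM ex vivo in WT and at 69.7, 64.2 and 80.9 TPM after stimulation. The ex vivo spread was wide, with WT ex vivo 3 highest, but the groups did not overlap. The log2 change was -3.50 (SE 0.290, adjusted p = 1.29e-05), and -3.18 without WT ex vivo 3. Fosb (chromosome 7, 19888070 to 19895394), a close relative of Fos, went from 854, 618 and 892 TPM to 63.1, 63.0 and 76.3 TPM, a log2 change of -3.71 (SE 0.183, adjusted p = 7.29e-07), and -3.60 without WT ex vivo 3. By the size of the fall in WT, Jun ranked first of all genes tested, Fosb 5, Fos 10, Junb 12 and Jund 19. Fosl2 (chromosome 5, 32438845 to 32460204), a Fos relative without the strong activation domain of Fos, stood at 109, 54.1 and 58.8 TPM ex vivo and at 163, 154 and 185 TPM after stimulation. It rose by 1.04 (SE 0.219, adjusted p = 0.00435) in WT, and by 0.90 in cKO (adjusted p = 0.00781). The increase in WT was 0.92 (adjusted p = 0.0188) without WT ex vivo 3. These increases were not called when genes down to 1 TPM were tested with scaling factors taken anew over them (adjusted p = 0.229 in WT and 0.528 in cKO), nor in cKO on TPM as deposited (0.150). The new factors moved cKO stimulated 3 from 0.732 to 1.13, and the log2 change of Fosl2 in cKO to 0.35. With the wider set of genes and unchanged factors, an alternative added after the data were seen, both increases were called (adjusted p = 0.00825 and 0.0134). Fosl1 (chromosome 19, 5447703 to 5455945), another Fos relative, stayed at 3.39 to 9.79 TPM over all 12 libraries and was not called in WT (log2 change 0.31, SE 0.184, adjusted p = 0.223), nor without WT ex vivo 3 (0.26, 0.403).

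Atf3 (chromosome 1, 192994175 to 193007219) went from 38.2, 36.0 and 45.7 TPM in WT ex vivo to 13.2, 12.7 and 15.6 TPM in WT stimulated. The groups did not overlap, and the log2 change was -1.65 (SE 0.160, adjusted p = 3.09e-05), and -1.54 without WT ex vivo 3. Batf (chromosome 12, 87027619 to 87050037) moved little: 45.4, 34.7 and 49.95 TPM ex vivo and 39.7, 30.1 and 41.6 TPM after stimulation. These ranges overlapped, and the fall of 0.41 (SE 0.0996, adjusted p = 0.00948) was not called on TPM as deposited (log2 change -0.21, adjusted p = 0.522), after quantile normalization (-0.13, 0.347) or with genes down to 1 TPM and new factors (-0.66, 0.0988), but was called with those genes and unchanged factors (0.0196). Without WT ex vivo 3 the log2 change was -0.29 (adjusted p = 0.0322). Batf3 (chromosome 1, 192922293 to 192932822), the dendritic cell relative of Batf, was at 1.70 to 4.94 TPM in all libraries, from 10 to 29 reads each. It gave no called difference where genes down to 1 TPM were tested with new factors, with log2 changes of -0.15 in WT and 0.32 in cKO upon stimulation (adjusted p = 0.824 and 0.446) and of -0.13 ex vivo and 0.34 after stimulation for cKO against WT (1 and 0.569). With unchanged factors these were 0.04, 0.76, -0.13 and 0.60, again not called (adjusted p = 0.946, 0.0593, 1 and 0.317).

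**Figure D2:**
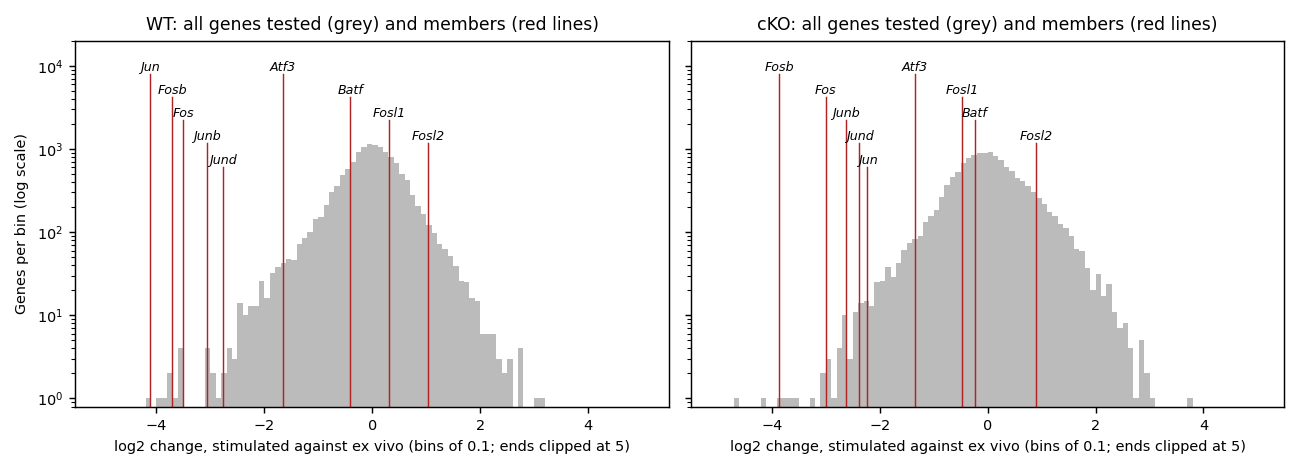
Histograms of the log2 change upon stimulation over all genes tested in WT and cKO (counts on a log axis), with a red line for each of the 9 members tested. The Jun and Fos genes lie in the lower tail in both, with Jun at -4.11 in WT and -2.23 in cKO, and Fosl2 lies to the right of 0.

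In cKO Treg the same comparison gave 6 members that fell, Fosl2 that rose, and Batf and Fosl1 that were not called, against 43.8% of all genes called (17.3% higher, 26.5% lower). The median log2 change was -2.23 over the 9 members and -0.01 over all genes tested. Fosb had the largest fall of the members, from 872, 981 and 1286 TPM to 64.5, 72.0 and 36.9 TPM, a log2 change of -3.86 (SE 0.183, adjusted p = 4.16e-07). Fos went from 464, 630 and 866 TPM to 66.9, 79.3 and 44.6 TPM (log2 change -3.00, adjusted p = 2.38e-05). In both genes no stimulated library reached the ex vivo range. Junb had a log2 change of -2.62 and Jund of -2.38 (adjusted p = 1.86e-06 and 1.13e-06). Jun went from 195, 228 and 344 TPM to 50.4, 42.8 and 32.9 TPM, a log2 change of -2.23 (SE 0.216, adjusted p = 2.41e-05). Jun was first by size of fall in WT but 66 in cKO. Atf3 fell by 1.35 (adjusted p = 9.43e-05). Batf had a log2 change of -0.23 (adjusted p = 0.0794), which turned to 0.22 after quantile normalization and was called with genes down to 1 TPM and new factors (-0.77, adjusted p = 0.0259), though not with unchanged ones (-0.23, 0.0971). Fosl1 had a log2 change of -0.48 (SE 0.184, adjusted p = 0.0551). It was called without WT ex vivo 2 (-0.48, adjusted p = 0.0362), without cKO stimulated 3 (-0.56, 0.0480), on TPM as deposited (-0.76, 0.0151), after quantile normalization (-0.90, 0.000354) and with genes down to 1 TPM and new factors (-0.93, 0.000952), though not with those genes and unchanged factors (-0.48, 0.0765).

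Beside these falls, a list of 12 genes known to respond to the handling of cells was read in the same libraries. Of these, 10 fell and 0 rose in WT, and 10 fell and 0 rose in cKO, with median log2 changes of -1.44 and -1.55. Over all genes tested, 19.3% fell in WT and 26.5% in cKO. Klf6, a zinc finger factor, had log2 changes of -3.59 in WT and -2.65 in cKO. The values were -2.603 and -3.00 for Dusp1, a phosphatase that ends MAP kinase signalling, and -2.55 and -2.91 for Zfp36, which promotes mRNA decay. The chaperone gene Hsp90aa1 had -1.29 and -1.36. The summed level of the list went from 2810 to 4616 TPM over WT libraries before stimulation and from 1259 to 1543 TPM after it, and for cKO from 3418 to 4327 TPM before and from 751 to 1302 TPM after. The part of cell handling in the levels of the members was not tested.

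**Figure D3:**
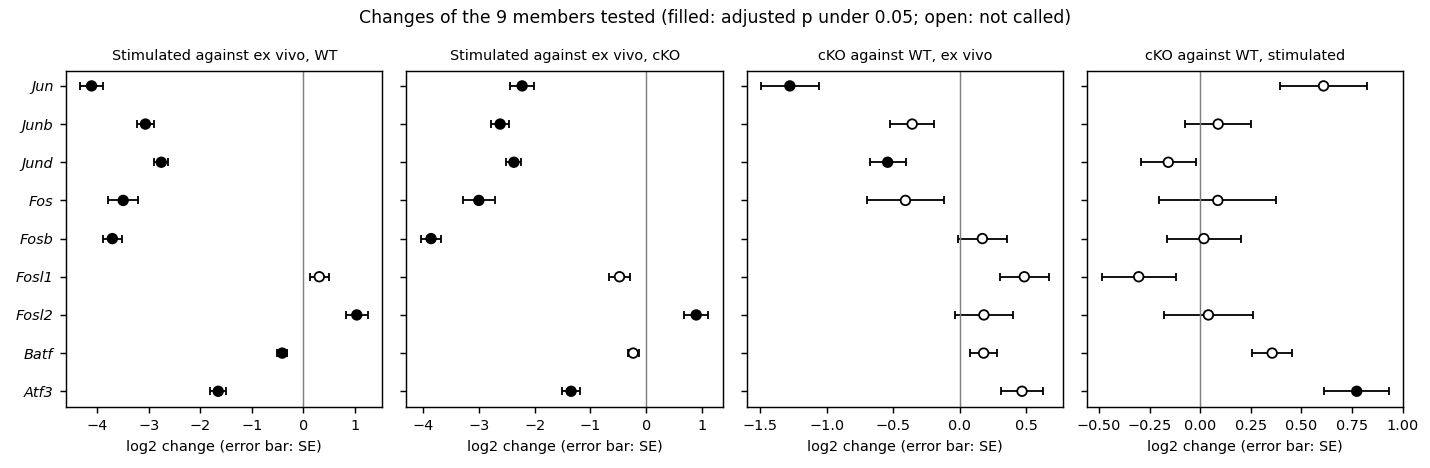
Log2 change with its SE for the 9 members tested in 4 comparisons, filled where the adjusted p was under 0.05. Jun, Junb, Jund, Fos and Fosb lie between -4.11 and -2.23 upon stimulation, and Jun lies at -1.28 for cKO against WT ex vivo.

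The comparison of cKO with WT ex vivo asked what loss of Ikaros did to the family in unstimulated Treg. Jun was lower in cKO, Jund was lower by less, and the other 7 members tested were not called. For all genes, 5.29% were called (3.62% higher and 1.67% lower). The WT libraries held Jun at 485, 388 and 710 TPM and the cKO libraries at 195, 228 and 344 TPM, so the highest cKO library lay below the lowest WT library. It fell by 1.28 on the log2 scale (SE 0.216, adjusted p = 0.00696), and by 1.04 (adjusted p = 0.0200) without WT ex vivo 3. The fall was called with each of the 12 libraries left out in turn, but not on TPM as deposited (log2 change -1.04, adjusted p = 0.0656), nor with new factors taken over genes down to 1 TPM (-1.30, 0.161) or over all genes without a filter (-1.27, 0.179). It was called in both of these wider sets with unchanged factors (adjusted p = 0.0133 and 0.0155). Of the 12 genes that respond to handling, 2 were higher and 2 lower in cKO ex vivo: Ier3 at 1.48, Socs3 at 0.95, Klf6 at -1.12 and Nr4a1 at -0.78. Ier3 was tested only through the cKO groups, with means of 8.12 TPM ex vivo and 6.80 TPM stimulated, beside 1.85 and 3.71 TPM in WT. Its place among the higher genes thus partly follows from the filter. Nr4a1 was not called without WT ex vivo 3 (-0.65, adjusted p = 0.0810).

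For Jund the WT ex vivo libraries held 573, 419 and 668 TPM and the cKO ones 448, 416 and 457 TPM, with overlapping ranges. Its fall of 0.54 (SE 0.135, adjusted p = 0.0431) lay just inside the threshold. It was called with 3 of the 12 libraries left out in turn, those being WT ex vivo 2, cKO stimulated 2 and cKO stimulated 3. Leaving out any of the other 9 gave adjusted p = 0.0527 to 0.140. Without WT ex vivo 3 the log2 change was -0.40 (adjusted p = 0.1001). Jund was also not called on TPM as deposited (-0.30, 0.557), with genes down to 1 TPM and new factors (-0.56, 0.749) or unchanged ones (-0.54, 0.0897), with no filter and new factors (-0.54, 0.774) or unchanged ones (-0.54, 0.0996), or with the replicate number as a block (-0.54, 0.0879). Fos (log2 change -0.41, adjusted p = 0.536) and Junb (-0.36, 0.284) were not called. Fosb (0.17, 0.721), Fosl2 (0.18, 0.761), Batf (0.18, 0.404), Fosl1 (0.48, 0.188) and Atf3 (0.47, 0.141) had positive values that were not called. These 7 members were again not called without WT ex vivo 3, and the log2 changes were then -0.10 for Fos, -0.23 for Junb, 0.26 for Fosb, 0.05 for Fosl2, 0.28 for Batf, 0.42 for Fosl1 and 0.56 for Atf3. Atf3 nevertheless stood at 53.0, 62.8 and 83.7 TPM in cKO ex vivo, above all 3 WT ex vivo libraries (38.2, 36.0 and 45.7 TPM). Batf stood at 55.1, 58.3 and 58.8 TPM in cKO, above WT at 45.4, 34.7 and 49.95 TPM. Neither gene was called on TPM as deposited (adjusted p = 0.131 for Atf3 and 0.408 for Batf) or on rescaled TPM. After rescaling the Atf3 ranges remained apart (34.7 to 48.7 in WT and 50.3 to 75.4 in cKO), and the Batf ranges overlapped (41.2 to 53.2 and 49.6 to 53.0).

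After stimulation, Atf3 was the only member called between cKO and WT, and it rose. For all genes, 6.93% were called (3.30% higher and 3.63% lower). Atf3 stood at 24.3, 21.6 and 14.9 TPM in cKO stimulated and at 13.2, 12.7 and 15.6 TPM in WT stimulated. The deposited ranges overlapped through cKO stimulated 3, the library with the highest Gm10800 share (55.9%). On rescaled values Atf3 rose by 0.77 (SE 0.160, adjusted p = 0.0164). The adjusted p was 0.0596 without WT stimulated 1 (log2 change 0.72), 0.0549 without WT stimulated 3 (0.78) and 0.0624 without cKO stimulated 1 (0.76). The gene was also not called on TPM as deposited (0.50, adjusted p = 0.166) or with new factors over genes down to 1 TPM (0.48, 0.397) or over all genes without a filter (0.48, 0.391), but was called in these sets with unchanged factors (0.0314 and 0.0345). Batf had a log2 change of 0.36 (SE 0.0996, adjusted p = 0.0578). It was called without WT ex vivo 3 (0.39, adjusted p = 0.0158), with median of ratios scaling (0.38, 0.0494) and after quantile normalization (0.54, 0.00613). Jun had a log2 change of 0.61 (SE 0.216, adjusted p = 0.120), which was called after quantile normalization (0.81, adjusted p = 0.0173). Junb (0.09), Fos (0.09), Fosb (0.02), Fosl2 (0.04), Jund (-0.16) and Fosl1 (-0.30) were not called, although Fosl1 was called after quantile normalization (-0.63, adjusted p = 0.0113). Of these, Junb, Fos, Fosb and Fosl2 turned negative on TPM as deposited, and Jund turned positive after quantile normalization.

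The interaction of genotype and stimulation asked whether the change upon stimulation differed between WT and cKO. It was called for Jun alone among the 9 members, and for 1.10% of all genes (0.451% higher and 0.653% lower in cKO relative to WT). The fall of Jun was smaller in cKO by 1.89 log2 units (SE 0.305, adjusted p = 0.0173). The value was 1.69 (adjusted p = 0.0269) without WT ex vivo 3. It was not called without cKO ex vivo 1 (1.75, adjusted p = 0.0514), without WT stimulated 3 (1.86, 0.0515), without cKO stimulated 1 (1.87, 0.0549), on TPM as deposited (1.36, 0.0959) or with new factors over genes down to 1 TPM (1.60, 0.491) or over all genes without a filter (1.59, 0.490). In these wider sets with unchanged factors it was called (adjusted p = 0.0305 and 0.0368). Next in size was Fosl1, at -0.79 (SE 0.260, adjusted p = 0.188), which was called after quantile normalization (-1.03, adjusted p = 0.0149). The other 7 members had values from -0.15 to 0.50 that were not called. Without WT ex vivo 3 Fosl1 stood at -0.70 and these 7 at -0.21 to 0.36, again not called.

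Levels within a library do not depend on the scaling between libraries, so each member was also read as a share of the summed TPM of the 10. With 3 libraries against 3, an exact two-sided permutation test cannot give a p below 0.1, so no share could pass 0.05. Jun held 10.3 ± 0.998% of the sum in WT ex vivo and 5.35 ± 0.979% in cKO ex vivo (SD, n = 3 each, exact permutation p = 0.1), and the libraries did not overlap. After stimulation the order turned, with 4.12 ± 0.268% in WT and 5.93 ± 0.75% in cKO, again without overlap (exact permutation p = 0.1). Fosb held 15.6 ± 1.2% in WT ex vivo and 22.0 ± 1.9% in cKO ex vivo, then 8.41 ± 0.417% and 7.92 ± 0.668% after stimulation. Its share was thus higher in all 3 cKO ex vivo libraries, while its stimulated ranges overlapped. Atf3 held 0.800 ± 0.108% in WT and 1.40 ± 0.167% in cKO before stimulation, then 1.72 ± 0.0692% and 2.83 ± 0.246% after it, higher in every cKO library than in any WT library under both conditions.

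Fosl2 had the widest move in share. It held 1.48 ± 0.594% of the family's TPM in WT ex vivo and 20.9 ± 0.499% in WT stimulated, and 2.07 ± 0.637% and 20.0 ± 1.70% in cKO (exact permutation p = 0.1 for each, n = 3). Junb went from 45.4 ± 2.52% to 38.8 ± 1.94% in WT and from 44.6 ± 4.04% to 38.3 ± 1.65% in cKO, remaining the largest share in all groups. Batf went from 0.858 ± 0.0505% to 4.62 ± 0.531% in WT and from 1.23 ± 0.109% to 5.55 ± 0.923% in cKO. These gains in share of Fosl2, Batf and Atf3 came with a summed level that was several times lower. Fosl2 itself went from 73.9 ± 30.3 to 167 ± 16.2 TPM in WT, and neither Batf nor Atf3 rose upon stimulation.

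**Figure D4:**
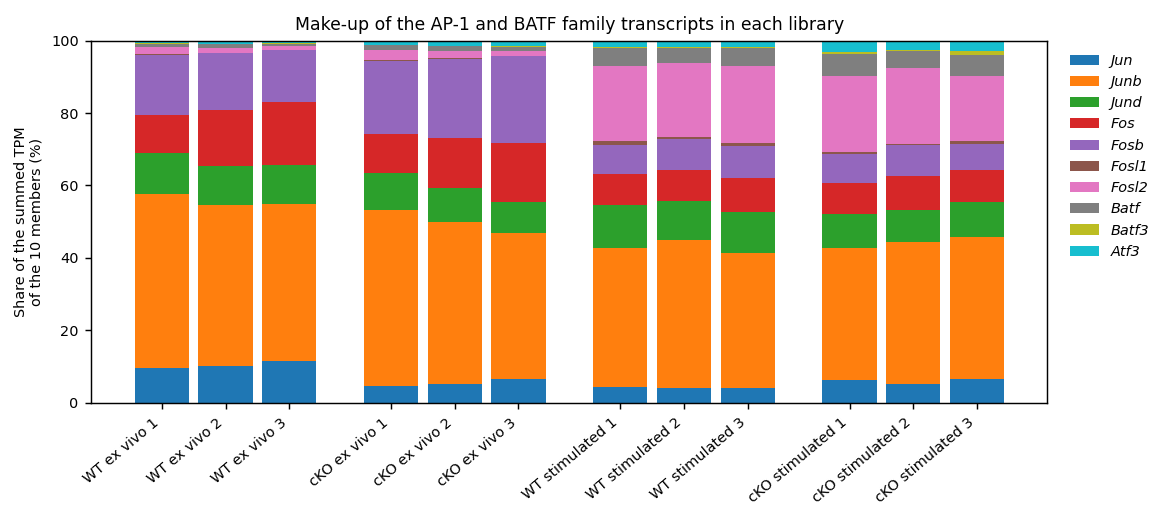
Share of the summed TPM of the 10 members taken by each member in each of the 12 libraries, stacked to 100%. The pink Fosl2 segment goes from 1.48% on average in WT ex vivo to 20.9% in WT stimulated, and the Jun segment at the base is 10.3% in WT ex vivo and 5.35% in cKO ex vivo.

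Ratios between members, chosen after the values were seen, gave the same order for Jun. The ratio of Jun to Junb was 0.195, 0.224 and 0.262 in WT ex vivo and 0.0934, 0.113 and 0.159 in cKO ex vivo. In stimulated cells it was 0.115, 0.0948 and 0.109 in WT and 0.173, 0.129 and 0.164 in cKO. The cKO libraries lay below WT before stimulation and above WT after it, with no overlap in either. The ratio of Atf3 to Jun was 0.0786 ± 0.0141 in WT and 0.263 ± 0.0175 in cKO before stimulation, and 0.420 ± 0.0347 and 0.479 ± 0.0263 after it (SD, n = 3 each).

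The wider pathway was read from lists of genes. Among 20 tested of 23 other bZIP genes, stimulation raised 3 and lowered 7 in WT and raised 3 and lowered 9 in cKO, where 32.0 and 43.8% of all genes tested were called. The median log2 changes of these 20 genes were 0.0090 and -0.28, beside 0.0021 and -0.01 for all genes. Mafk and Maff, small Maf proteins without an activation domain, had log2 changes of -1.62 in WT and -1.47 in cKO (Mafk) and of -2.31 and -2.06 (Maff). Ddit3 and Atf4, factors of the integrated stress response, had log2 changes of -1.89 and -1.85 in WT. Crem, of the cyclic AMP response family, rose by 1.02 in WT and 1.66 in cKO, and the interaction was not called (0.64, adjusted p = 0.0989). Between genotypes ex vivo, 3 of these bZIP genes were higher in cKO and 2 lower, against 5.29% of all genes called. Nfil3 (log2 change 0.85, adjusted p = 0.0155) and Maf (0.53, 0.0439) were higher, and Atf4 (-0.68, 0.0233) and Ddit3 (-0.61, 0.0340) lower. With WT ex vivo 3 left out, limma called 0 of the 20 ex vivo: Nfil3 stood at 0.85 (0.0523), Maf at 0.54 (0.1004), Atf4 at -0.64 (0.0827), Ddit3 at -0.59 (0.123) and the fifth, Atf6, at 0.30 (0.174). Upon stimulation in WT it then called 8. After stimulation, where 6.93% of all genes were called, 3 were higher and 0 lower, Nfil3 by 1.39, Maf by 0.69 and Cebpb by 0.68.

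Of 20 kinases and activators upstream of AP-1, 3 rose and 3 fell in WT upon stimulation, near the 32.0% of all genes called, with Mapk8 (JNK1, which phosphorylates Jun) at -0.41, Srf (which drives Fos transcription) at -0.39, Map3k1 at 0.57 and Braf at 0.44. Braf (0.34, adjusted p = 0.0577) and Mkl1 (0.36, 0.104) were not called without WT ex vivo 3, which left 4 called. In cKO, 2 rose and 7 fell, near the 43.8% of all genes, with Mapk8 at -0.83. The medians of the 20 were -0.03 and -0.21. Between genotypes ex vivo, limma called 0 of the 20 (3 at an unadjusted p under 0.05), with a median of -0.03. After stimulation Mapk14 (p38 alpha) alone was called, at -0.47, while 9 of the 20 had an unadjusted p under 0.05, 4 had a positive value, and the median was -0.20 beside -0.03 for all genes. Of 4 ubiquitin ligases of Jun and Fos tested, limma called 0 in each of the 5 comparisons, with at most 1 at an unadjusted p under 0.05.

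Of 5 NFAT and IRF partners of AP-1, 1 rose and 1 fell upon stimulation in WT, and 2 rose and 3 fell in cKO, with median log2 changes of 0.11 and -0.50, against 32.0 and 43.8% of all genes called. Irf4, the partner of Batf and Jun at composite elements, rose upon stimulation by 1.56 in WT and 0.95 in cKO, and was higher in cKO by 1.12 ex vivo and 0.51 after stimulation (adjusted p = 0.00123 and 0.0474). Between genotypes, 2 of the 5 were higher and 0 lower in cKO ex vivo, against 5.29% of all genes called. Without WT ex vivo 3, limma called 1 of the 5 ex vivo. After stimulation 2 were higher and 1 lower, against 6.93% of all genes. Nfatc2 had log2 changes upon stimulation of -0.93 in WT and -0.94 in cKO. Of 6 tested of 8 cytokine genes with NFAT and AP-1 elements, 0 rose and Ifng fell in WT (log2 change -2.24), and 4 rose and 2 fell in cKO, with Il3 at 2.90, Il2 at 2.35 and Csf2 at 1.43. The medians of the 6 were -0.11 in WT and 1.44 in cKO. However, Il2, Il3, Csf2 and Il13 reached a mean of 5 TPM in cKO stimulated alone (8.88, 20.1, 6.61 and 6.33 TPM). In the other groups their means were at most 3.35 TPM. They were thus tested only through the group where they were high. The counts, medians and interaction given for this list therefore cannot show a rise in cKO. Ifng and Tnf passed the filter in other groups as well. Between genotypes 5 of the 6 were higher in cKO after stimulation, against 3.30% of all genes, led by Ifng (2.54, adjusted p = 0.000325), Il3 (2.78, 0.00212), Il2 (2.10, 0.0209) and Tnf (0.66, 0.0161), and the interaction was called for Il3 alone (2.90, adjusted p = 0.0383), against 1.10% of all genes, and was not called without WT ex vivo 3 (3.08, 0.0625). Of 10 effector Treg genes linked to Batf, 4 were higher and 0 lower in cKO ex vivo, against 3.62% of all genes that were higher, among them Klrg1 (0.86), Il1rl1 (0.97), Prdm1 (0.76) and Il10 (0.87), of which Il10 was not called without WT ex vivo 3 (0.71, adjusted p = 0.127). After stimulation 4 were higher and 0 lower, against 3.30% of all genes, namely Icos (0.90), Il1rl1 (0.89), Gata3 (0.76) and Prdm1 (0.56). Markers of other cell types were read beside these differences. The 8 myeloid markers summed to 18.1 to 23.2 TPM over the WT ex vivo libraries and to 24.8 to 35.6 TPM over the cKO ones, with 1 of the 2 tested (Cebpa) called higher in cKO, though not without WT ex vivo 3 (0.54, adjusted p = 0.153). The 6 B cell markers summed to 15.9 to 18.6 TPM over the WT ex vivo libraries and to 25.2 to 33.7 TPM over the cKO ones, so both sums were higher in every cKO library. Of the 2 B cell markers tested, Cd79b went from 5.94 ± 1.53 to 11.9 ± 0.285 TPM and Cd22 from 4.11 ± 0.351 to 7.72 ± 1.07 TPM (SD, n = 3 each), with neither called ex vivo and Cd79b called higher in cKO after stimulation (log2 change 0.96, adjusted p = 0.0283). Cd22 reached a mean of 5 TPM in cKO ex vivo alone, the group where it was high. The part of these cell types in the differences between genotypes was not tested.

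Across the 12 libraries, the genes whose log2 level tracked each member most closely were named as a description. The points share the step from ex vivo to stimulated libraries, which sets most of the likeness. Junb ran closest to Ppp1r15a (Pearson r = 0.995), a stress-induced phosphatase subunit, and to Jund (0.995). Jund ran with Dnajb9 (0.996) and Fos with the chaperone genes Dnaja1 (0.993) and Dnajb1 (0.991). Fosb ran with Zfand2a (0.996) and Zfp36 (0.996), and Jun with Dynll1 (0.984). Fosl2 ran with Stat5a (0.981) and Cblb (0.975), Batf with Tnfsf10 (0.970) and H2-Oa (0.946), Atf3 with Wls (0.978) and Tmem55a (0.975), and Fosl1 with Astl (0.872) and Kif23 (0.844). Within the family, Jun and Fos had r = 0.972 over all libraries and 0.879 after group means were removed, Junb and Jund 0.995 and 0.908, and Fos and Atf3 0.904 and 0.899. Fosl2 was negatively related to Fos, at -0.916 over all libraries and -0.475 after group means were removed.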

How the data were processed

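Per the labels and the study's methods, the authors depleted ribosomal RNA, prepared directional libraries and read them as pairs of 51 bp. STAR 2.6.0c aligned the pairs to mm9 and HTSeq 0.6.1 counted them over exons by strand. The deposited signal is TPM per gene and library. The deposited log2 column is log2 of TPM plus the value of 1 read, from which read numbers were recovered (99.9977% whole within 0.01). A second deposited table holds the authors' own fold changes, F statistics, p-values and FDR for 6 comparisons and was not used.

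TPM were rescaled with trimmed mean of M-values factors (trims 30% and 5%), taken as log2(TPM + 1) and tested with limma 3.58.1 in R 4.3.3 over 13318 genes whose highest group mean reached 5 TPM, in 1 fit of 4 groups, with Benjamini-Hochberg adjusted p over all genes and calls under 0.05. Fold changes of low genes are understated on this scale. The members, the lists and the filter were chosen with earlier results of these data known. Named genes were all 10 members, Ikzf1, at most 4 called genes of smallest adjusted p per list, and for each tested member the 2 genes of highest Pearson r, of which 1 is not reported here. Lists also covered B cell (2 of 6 tested), myeloid (2 of 8), CD8 and NK (1 of 6), erythroid (0 of 5) and Treg markers (8 of 8). The test was tried on simulated data first. Gene positions came from the NCBIM37 annotation, where BC042782, Gm11175 and Ccdc85b overlap Jun, Jund and Fosl1 on the opposite strand, and promoter windows from RefSeq. Tables were handled with Python 3.11.15 and pandas 2.3.3.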

Additional observations from a re-analysis of the deposited data

Results flagged for a closer look

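The change of Jun upon stimulation differed between the genotypes, with an interaction of 1.89 log2 units (SE 0.305, limma, adjusted p = 0.0173), since Jun fell by 4.11 in WT and by 2.23 in cKO. All 3 cKO ex vivo libraries (195 to 344 TPM) lay below all 3 WT ex vivo libraries (388 to 710 TPM), and after stimulation cKO stood at 32.9 to 50.4 TPM and WT at 29.1 to 35.1 TPM. Alternatives gave values from 1.36 to 2.12 with adjusted p from 0.00598 to 0.491.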

How the results depend on the processing

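All 22 alternatives, 2 of them added after the data were seen, kept the falls of Jun, Junb, Jund, Fos, Fosb and Atf3 upon stimulation called in both genotypes. The number of members called was 2 between genotypes ex vivo, 1 between genotypes after stimulation and 1 for the interaction. All of these came to 0 in limma on TPM as deposited and with scaling factors taken anew over genes down to 1 TPM or over all genes without a filter, where 1 to 3 members had an unadjusted p under 0.05. After stimulation the count was 2 with median of ratios scaling and 4 with quantile normalization, and the interaction gave 2 with quantile normalization. Quantile normalization also raised the calls over all genes, from 923 to 1579 after stimulation and from 147 to 392 for the interaction, and median of ratios scaling gave 914 and 137. Leaving out each library in turn gave 1 to 2 members ex vivo, 0 to 2 after stimulation and 0 to 1 for the interaction. TPM as deposited moved the median log2 change of all genes to 0.21, -0.30, 0.18, -0.31 and -0.52 in the genotype comparisons ex vivo and after stimulation, the stimulation comparisons in WT and cKO and the interaction. With genes down to 1 TPM and new factors the medians were -0.02, -0.31, -0.23, -0.50 and -0.30, and 57, 68, 1838, 5903 and 0 of 33873 genes were called, against 704, 923, 4262, 5835 and 147 of 13318. In both wider sets with unchanged factors, the added alternatives, 1 member was called in each of the genotype comparisons and the interaction, and with genes down to 1 TPM 390, 600, 3446, 7725 and 74 genes were called. The cause of the other shifts was not tested.

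Replicate numbers were not taken as pairs, since not every correlation of deviations from group means between libraries of the same number was over 0.1 (-0.208 to 0.257). Between WT and cKO ex vivo they were 0.149, 0.257 and 0.0781, and each of these 6 libraries correlated best with its own number, a hint from the data and not the design. With the replicate block, Jun ex vivo kept its call (adjusted p = 0.0112) and Jund did not (0.0879), so 1 member was called. Depth limits Batf3, at 10 to 29 reads per library.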
